A study of Mus musculus with 8 samples.

Results

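The genes described here are 9 members of the ATF4 axis, the transcription factors and feedback genes that act around activating transcription factor 4 in the integrated stress response. They were taken by name, as a set chosen with earlier results of these data known: Atf4, Atf5, Atf3, Ddit3, Cebpb and Cebpg encode transcription factors, and Trib3, Nupr1 and Chac1 are targets whose products act back on the pathway or on the survival of the cell. Each member had a row among the 55471 gene rows of the count tables, and all 9 were among the 15084 genes that passed the filter on low counts. RNA had been sequenced from a small piece of heart from each of 4 wild-type (WT) and 4 TAZG197V mice. TAZG197V mice carry a patient-derived missense mutation, introduced by CRISPR/Cas9, in the X-linked gene for Tafazzin, the mitochondrial enzyme that remodels cardiolipin, and serve as a model of Barth syndrome. The mutants were hemizygous males, and the hearts came from mice aged 14 weeks. Both genotypes were untreated, and founders made in C57BL/6N zygotes had been crossed to C57BL/6J. The mutation is present in every cell of the animal, so an effect that arises in the heart and one that reaches it from other organs cannot be told apart in these samples. Nothing in the labels says which of the libraries came from littermates.

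The integrated stress response converges on phosphorylation of the translation factor eIF2α, which lowers general protein synthesis and favours translation of the ATF4 message. ATF4 is a basic leucine zipper (bZIP) protein. It binds DNA as a dimer, often with a member of the C/EBP family, at composite elements in the genes for amino acid synthesis, amino acid transport and stress defence, and in the genes of several of its own partners. In heart muscle the pathway is known as a response to faulty mitochondria. Because much of ATF4 control is translational, the values below describe transcripts and not the amount or activity of any protein.

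Promoters of the members were searched for the composite element in the RefSeq table of promoters on GRCm38.p6, with 250 bases before and 50 bases after each start, because a shared element is the feature that would set members apart from other genes. The letters searched were TGATGNAA on either strand, which reads TTNCATCA on the other. The table held 32851 promoters, and 10 of them belonged to the 9 members, since Atf5 has a pair of starts. The element was found in 4 of the 10 member promoters, those of Atf3, Chac1, Nupr1 and Trib3, against 3.97% of all promoters in the table. Other ATF4 target genes (27 in the table, with 33 promoters) held it in 7 promoters (21.2%), and other bZIP factors (35 in the table, with 48 promoters) in 3 (6.25%). The cyclic AMP response element TGACGTCA, a palindrome of which no copy can also match the composite letter for letter, was in none of the member promoters and in 1.79% of all promoters. Lengthening the composite by 1 letter to TGATGNAAT left 1 member promoter of 10 and 0.965% of all promoters. A match is only a run of letters, and a missing match says nothing about binding outside this window. The matched sites are shown on the strand of the gene, 30 bases each, with the match in capitals, so that their common letters can be compared:
Atf3: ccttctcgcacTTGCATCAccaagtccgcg
Chac1: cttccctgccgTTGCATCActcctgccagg
Nupr1: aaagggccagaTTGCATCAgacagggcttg
Trib3: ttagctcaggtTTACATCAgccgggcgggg

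In Atf3, Chac1 and Nupr1 the matched letters were identical, and in Trib3 they differed within the free position of the motif. All 4 matches lay on the strand opposite to the gene. The match began 110 bases before the start in Atf3 and in Nupr1 and 193 bases before it in Chac1. In Trib3 it lay inside the transcribed part, from base 15 to base 22 after the start. The 250 bases before the start are given for a transcription factor and a feedback gene with a match upstream of the start. All but the last few bases of these windows lie outside annotated exons of the gene, whereas the window of Nupr1 lies within exons of other Nupr1 transcripts. They cover chr1:191183334-191183583 on the minus strand for Atf3 and chr2:119350992-119351241 on the plus strand for Chac1. The Atf3 window belongs to a start inside the span of the gene, downstream of the first annotated exon of its longest transcript.
Atf3: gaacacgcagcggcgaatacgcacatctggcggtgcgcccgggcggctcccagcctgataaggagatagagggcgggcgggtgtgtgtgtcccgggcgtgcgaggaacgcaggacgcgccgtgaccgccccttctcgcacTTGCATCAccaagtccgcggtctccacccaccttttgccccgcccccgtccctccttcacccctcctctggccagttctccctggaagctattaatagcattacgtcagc
Chac1: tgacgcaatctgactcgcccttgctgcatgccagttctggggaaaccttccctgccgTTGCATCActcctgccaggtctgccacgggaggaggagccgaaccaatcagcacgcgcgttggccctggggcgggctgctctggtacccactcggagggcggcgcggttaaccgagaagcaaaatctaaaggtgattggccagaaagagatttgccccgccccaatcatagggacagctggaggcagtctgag

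The libraries held 23055689 to 36301031 counts each. Levels are given as TMM-scaled CPM, a count relative to the size of its library, with the SD over 4 hearts, and changes as log2 fold changes of TAZG197V over WT with their standard error (SE). Calls required an adjusted p under 0.05 in the quasi-likelihood test of edgeR, a rise of more than 15% or the equivalent fall, and a mean scaled count of at least 50. By this rule 33.5% of the 15084 genes tested were called in either direction, so a call alone is common in this comparison. Taz itself, which carries the mutation, was transcribed in all hearts, at 63.8, 58.7, 61.9 and 59.3 CPM in WT 1 to WT 4 and at 48.0, 50.4, 46.3 and 44.3 CPM in TAZG197V 1 to TAZG197V 4. The level of Taz thus fell, with a log2 fold change of -0.37 ± 0.06 (SE, edgeR adjusted p = 0.00124), and these counts cannot show the base change itself.

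Several libraries stood apart, and this bears on single members below. Red cell markers, mostly globins, took 5.51% of the scaled counts of WT 4, while the other WT hearts had 0.0346% to 0.107%. Neutrophil markers reached 89.0 CPM as a sum in WT 4, with 3.24 to 7.85 CPM elsewhere among the WT hearts. Neuronal transcripts summed to 233 CPM in WT 4 and to 440 CPM in TAZG197V 4, against at most 95.3 CPM in any other heart. Atrial markers summed to 1094 CPM in WT 2, far above the 4.24 to 121 CPM of WT 1, WT 3 and WT 4, and adipocyte markers were also at their highest in WT 2, with 44.0 CPM. The tissue label was checked with 10 cardiomyocyte markers, which made up 6.22% to 7.21% of scaled counts in WT and 5.43% to 5.84% in TAZG197V. Of the 10, 4 were called, all lower (40%, beside 15.1% of all genes). In pieces of whole tissue, fewer cells of a type and less RNA per cell cannot be told apart.

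All 9 members rose in TAZG197V hearts, whereas 18.5% of all genes tested were called higher. In 8 of the 9 the lowest TAZG197V heart was above the highest WT heart, a pattern that 19.3% of the genes tested showed, and Atf3 was the exception. The fitted folds ran from 2.36 for Cebpb to 39.6 for Trib3, with a median of 5.66. The median log2 fold change was 2.50 over the members and -0.01 over all genes tested, and each member ranked between 30 and 395 of the 15084 genes by its log2 fold change. The members therefore shared a direction and differed widely in size.

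**Figure D1:**
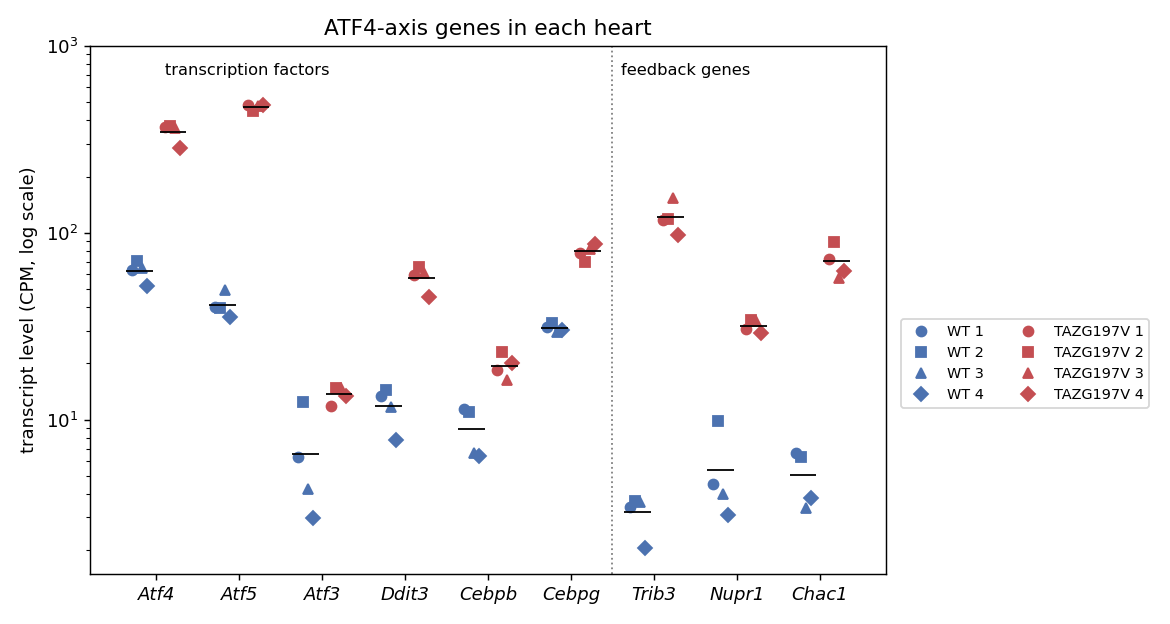
Transcript levels of the 9 members in each heart (CPM, log scale), with the symbol shape giving the replicate number, blue for WT, red for TAZG197V and a black line for the mean of 4 hearts. The red symbols lie above the blue ones for every gene but Atf3, where WT 2 at 12.5 CPM is above TAZG197V 1 at 11.8 CPM.

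Atf4 encodes the factor on which the pathway converges. It had the highest level per exon length of the members in WT hearts, with 63.1, 70.5, 64.7 and 51.6 CPM in WT 1 to WT 4. In TAZG197V 1 to TAZG197V 4 it reached 369, 372, 362 and 283 CPM. The lowest heart of each genotype was its number 4, and the gap between the genotypes was far wider than the spread within them. The mean rose from 62.5 ± 7.90 to 347 ± 42.8 CPM (SD, n = 4 each), at a log2 fold change of 2.50 ± 0.05 (SE, edgeR adjusted p = 1.54e-07).

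Atf5, a close relative of Atf4 that is itself controlled by translation and is linked to the mitochondrial unfolded protein response, showed the largest rise among the transcription factors. Its level was 39.9, 39.5, 49.2 and 35.5 CPM in WT and 486, 450, 476 and 482 CPM in TAZG197V. The mutant hearts were the most uniform of any member, with a coefficient of variation of 3.38%. The log2 fold change was 3.53 ± 0.11 (SE, edgeR adjusted p = 4.59e-07), and Atf5 passed Atf4 to become the most abundant member per exon length. Of its exon bases, 4.11% lie within exons of Nup62, a nuclear pore gene on the opposite strand, which went from 24.7 to 33.1 CPM.

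Ddit3 encodes CHOP, a C/EBP relative that ATF4 induces and that is associated with cell death under lasting stress. It was at 13.4, 14.4, 11.7 and 7.81 CPM in WT and at 59.1, 65.3, 60.8 and 45.2 CPM in TAZG197V. As for Atf4, the number 4 heart was the lowest of each genotype. The log2 fold change was 2.36 ± 0.08 (SE, edgeR adjusted p = 4.85e-07). On GRCm38, 10.9% of the exon bases of Ddit3 (chr10:127290774-127296288, plus strand) also belong to another annotated gene, of which 105 bases to a second identifier with the Ddit3 symbol, wholly inside the first and with 0 counts in every library. A further 68 bases are shared with Mars, the methionyl-tRNA synthetase gene on the opposite strand, whose own level rose from 45.3 to 167 CPM. The strand setting of the counting is not given in the sources used here.

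Cebpg and Cebpb encode C/EBP proteins that pair with ATF4 on composite elements. Cebpg varied least among WT hearts, with 31.4, 32.9, 29.5 and 30.2 CPM, and stood at 78.0, 69.8, 82.4 and 87.6 CPM in the mutant hearts. It rose by a log2 fold change of 1.38 ± 0.07 (SE, edgeR adjusted p = 5.84e-06). The genotypes were separated by a wide gap, although the fold was among the smallest of the set.

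Cebpb, which also has roles in inflammation and fat cell differentiation, had the smallest rise in the fit. Its level was 11.4, 11.1, 6.64 and 6.43 CPM in WT and 18.5, 22.9, 16.3 and 20.02 CPM in TAZG197V, a log2 fold change of 1.24 ± 0.17 (SE, edgeR adjusted p = 8.95e-04). The highest WT and the lowest TAZG197V heart were closer than for the other members without overlap. Of its exon bases (chr2:167688915-167690418, plus strand), 20.7% lie within exons of Tmem189 on the opposite strand, which went from 18.0 to 24.1 CPM. Macrophages express Cebpb strongly, and the 10 macrophage markers summed to 361 to 475 CPM in WT and to 356 to 552 CPM in TAZG197V, so their ranges overlapped. None of the 10 was called by edgeR or by DESeq2, and 2 had an unadjusted p under 0.05. The part of macrophages in the Cebpb values was not tested.

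Atf3, a stress-induced factor that mostly represses transcription, was the member with the least stable change. It was at 6.33, 12.5, 4.27 and 2.99 CPM in WT and at 11.8, 14.7, 14.8 and 13.5 CPM in TAZG197V. The mutant hearts agreed closely while the WT hearts spread over a coefficient of variation of 64.5%, and WT 2 overlapped the mutant range. The log2 fold change was 1.47 ± 0.13 (SE, edgeR adjusted p = 8.99e-05) with the surrogate variables in the fit. Without surrogate variables it was 1.06 and the call was lost, with an edgeR adjusted p of 0.0631. In that fit Atf3 rose less than Cebpb, whose log2 fold change was 1.125. The labels name no batch, but the names of the deposited files carry a lane number, 7 for libraries 1 and 2 of each genotype and 8 for libraries 3 and 4. By these numbers the log2 ratio of the means was 0.49 on lane 7, where the genotypes overlapped, and 1.957 on lane 8, where they did not. WT 2 was the heart with the high atrial and adipocyte markers, and the part of these in its Atf3 level was not tested.

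Atf3 is also known as an immediate early gene, one of the genes that cells switch on within minutes of a stimulus. The 18 immediate early genes listed apart from Atf3 summed to 801 and 1008 CPM in TAZG197V 1 and TAZG197V 2, and to 285 to 480 CPM in the other 6 hearts. Atf3 was at 11.8 and 14.7 CPM in the former pair and at 14.8 and 13.5 CPM in the other mutant hearts. Among WT hearts, WT 2 had both the highest Atf3 level and the highest immediate early sum, 480 CPM against 301 to 372 CPM. The part of these genes in the Atf3 values was not tested. Of the 18, Myc and Gadd45b rose (11.1%, beside 18.5% of all genes) and Socs3 fell (5.56%, beside 15.1%). The other 15 were not called, and the median log2 fold change over the 18 was 0.93. The call of Gadd45b held in 11 of the 19 alternative fits. Without TAZG197V 3, 10 of the list were called higher. Myc, a bHLH factor for growth, went from 4.08 ± 1.35 to 21.9 ± 4.09 CPM, with each mutant heart between 18.3 and 26.6 CPM.

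The 3 feedback genes had log2 fold changes of 2.89 to 5.31, against 1.24 to 3.53 for the 6 transcription factors. Trib3 encodes a pseudokinase that binds ATF4 and CHOP and restrains them. It was the rarest member per exon length in WT hearts, with 3.42, 3.68, 3.61 and 2.05 CPM from 46 to 134 counts, and reached 117, 119, 153 and 97.6 CPM in TAZG197V. Its log2 fold change of 5.31 ± 0.13 (SE, edgeR adjusted p = 2.80e-07) was the largest of the members. No base of its exons lies in another annotated gene.

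Chac1 encodes an enzyme that degrades glutathione and lies downstream of ATF4, ATF3 and CHOP. It was at 6.66, 6.29, 3.38 and 3.80 CPM in WT and at 72.7, 89.4, 57.4 and 62.7 CPM in TAZG197V. In both genotypes the hearts of lane 7 were above those of lane 8, a difference far smaller than that between genotypes. The log2 fold change was 3.91 ± 0.21 (SE, edgeR adjusted p = 9.77e-06).

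Nupr1 encodes a small stress-induced chromatin protein. It was at 4.53, 9.87, 4.00 and 3.08 CPM in WT and at 30.6, 34.2, 33.6 and 29.2 CPM in TAZG197V. As for Atf3, WT 2 was the highest WT heart and stood apart from the others, yet it remained well below each mutant heart. The log2 fold change was 2.89 ± 0.09 (SE, edgeR adjusted p = 4.85e-07) with the surrogate variables in the fit. Without surrogate variables it was 2.55 ± 0.32 (SE, edgeR adjusted p = 6.32e-04). Within lanes the log2 ratio of means was 2.17 on lane 7 and 3.15 on lane 8.

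For the members other than Atf3, the mutant hearts lay above the WT hearts on each lane taken alone, with 2 hearts of each genotype and the lanes again read from the file names. The log2 ratios of the means on lane 7 and lane 8 were 2.47 and 2.47 for Atf4, 3.56 and 3.501 for Atf5, and 2.16 and 2.44 for Ddit3. For Cebpb and Cebpg they were 0.89 and 1.48, and 1.202 and 1.51. Trib3 gave 5.06 and 5.47 and Chac1 gave 3.65 and 4.07. No member changed direction between the lanes.

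To ask whether the members moved in proportion to Atf4, the log2 ratio of each to Atf4 was taken within every library, with 0.5 CPM added to both genes, and compared between genotypes by an exact two-sided permutation test. The smallest p that 4 against 4 libraries allow is 0.0286, and p-values were adjusted over the 8 ratios. For 6 of the 8 the genotypes did not overlap, which gave this smallest p and an adjusted p of 0.0381. The ratio rose for Trib3, by 2.60 from -4.11 ± 0.17 to -1.52 ± 0.19, for Chac1 by 1.25 and for Atf5 by 1.06 on the log2 scale. It fell by 1.34 for Cebpb, by 1.28 for Atf3 and by 1.12 for Cebpg, whose ratio went from -0.99 ± 0.16 to -2.11 ± 0.31 (SD, n = 4 each). The C/EBP partners thus lagged behind Atf4 while Atf5 and a pair of feedback genes outran it.

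For Ddit3 and Nupr1 a difference in the ratio was not found. The ratio of Ddit3 was -2.38 ± 0.20 in WT and -2.58 ± 0.06 in TAZG197V, a difference of -0.21 (exact permutation p = 0.143, adjusted 0.163). The ratio of Nupr1 was -3.54 ± 0.52 and -3.42 ± 0.13, a difference of 0.12 (exact permutation p = 0.714). The wide WT spread of Nupr1 came from WT 2, where the ratio was -2.78 against -3.86 to -3.66 in the other WT hearts. With this spread a small departure from proportion in Nupr1 could not be detected.

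**Figure D2:**
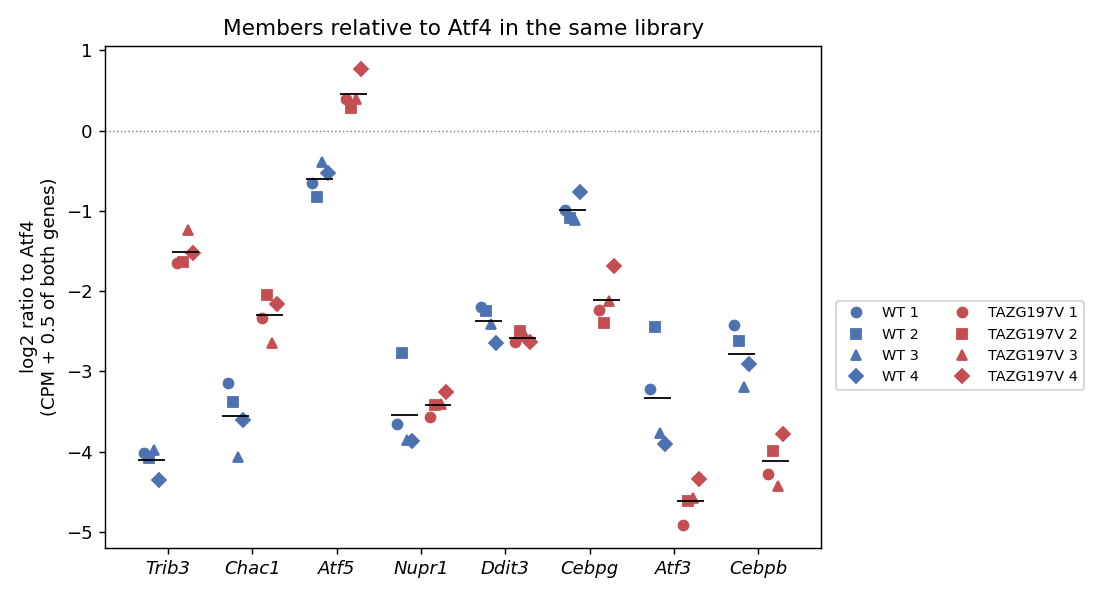
Log2 ratio of each member to Atf4 within the same library (CPM + 0.5 of both genes), ordered by the difference between genotypes, with blue for WT, red for TAZG197V, the symbol shape for the replicate number and a black line for the mean. Trib3, Chac1 and Atf5 shift upward, Cebpg, Atf3 and Cebpb downward, and the genotypes overlap for Nupr1 and Ddit3.

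Levels of different members were compared per kb of annotated exon. In WT hearts Atf4 led with 26.5 ± 3.35 CPM per kb, followed by Atf5 with 20.6 ± 2.90, and their ranges overlapped. Ddit3, Cebpb and Cebpg formed the next tier, at 6.91, 5.90 and 5.51 CPM per kb, each overlapping its neighbour. Chac1, Atf3, Nupr1 and Trib3 had the lowest means, from 3.07 down to 1.50 CPM per kb, where again each neighbour overlapped. Cebpg and Chac1 did not overlap, but Atf3 reached 5.79 CPM per kb in WT 2, within the ranges of Ddit3, Cebpb and Cebpg. In TAZG197V hearts the order changed. Atf5 led with 238 ± 8.05 CPM per kb, above Atf4 with 147 ± 18.1 and without overlap. Trib3 moved from the last to the third place with 57.3 ± 10.9 CPM per kb and overlapped Chac1 at 43.1 ± 8.60, which overlapped Ddit3 at 33.6 ± 5.07. Cebpg, Cebpb and Nupr1 lay together between 12.7 and 14.1 CPM per kb, and Atf3 was alone at the bottom with 6.35 ± 0.65.

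**Figure D3:**
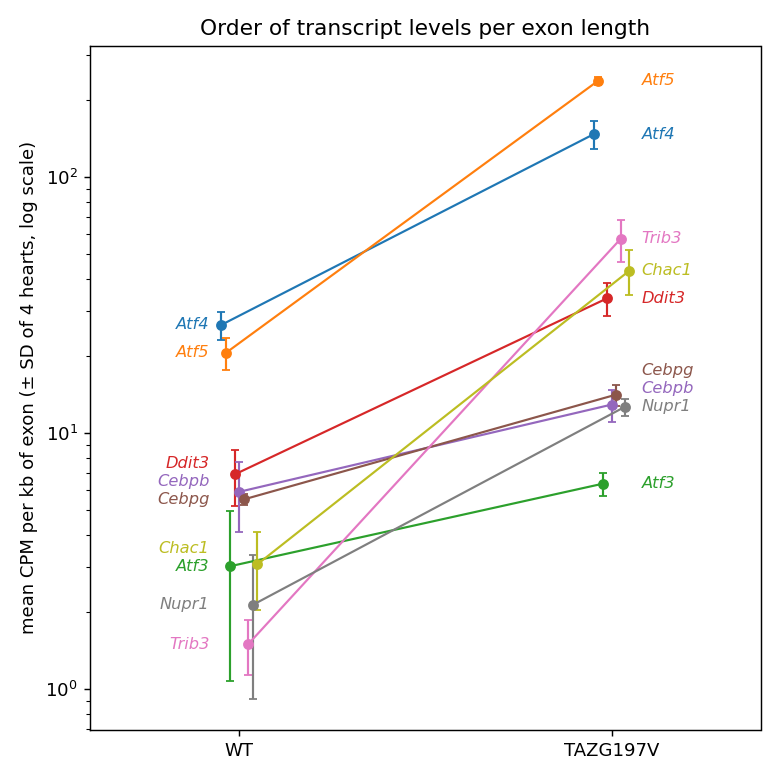
Mean level of each member per kb of exon (CPM per kb, log scale, error bars the SD of 4 hearts) in WT and TAZG197V, joined by a line for each gene. Atf4 leads in WT at 26.5 CPM per kb and Atf5 in TAZG197V at 238, and Trib3 goes from the lowest place at 1.50 to the third at 57.3.

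Within a genotype the members varied to very different degrees. The coefficient of variation among WT hearts ran from 4.76% for Cebpg to 64.5% for Atf3, with a median of 24.5%. Among TAZG197V hearts it ran from 3.38% to 19.95%, with a median of 12.3%, and it was the smaller of the pair in 8 of the 9 members. The exception was Cebpg. WT 2 was the highest WT heart for 6 members and WT 4 the lowest for 7, the exceptions being Cebpg and Chac1, which were lowest in WT 3. TAZG197V 4 was the lowest mutant heart for Atf4, Ddit3, Trib3 and Nupr1, and the highest for Cebpg. WT 4 and TAZG197V 4 were the hearts with the most neuronal transcripts and WT 4 also the one with the globins. The part of these in the lower member levels was not tested. Without both number 4 hearts, all 9 members were still called higher.

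**Figure D4:**
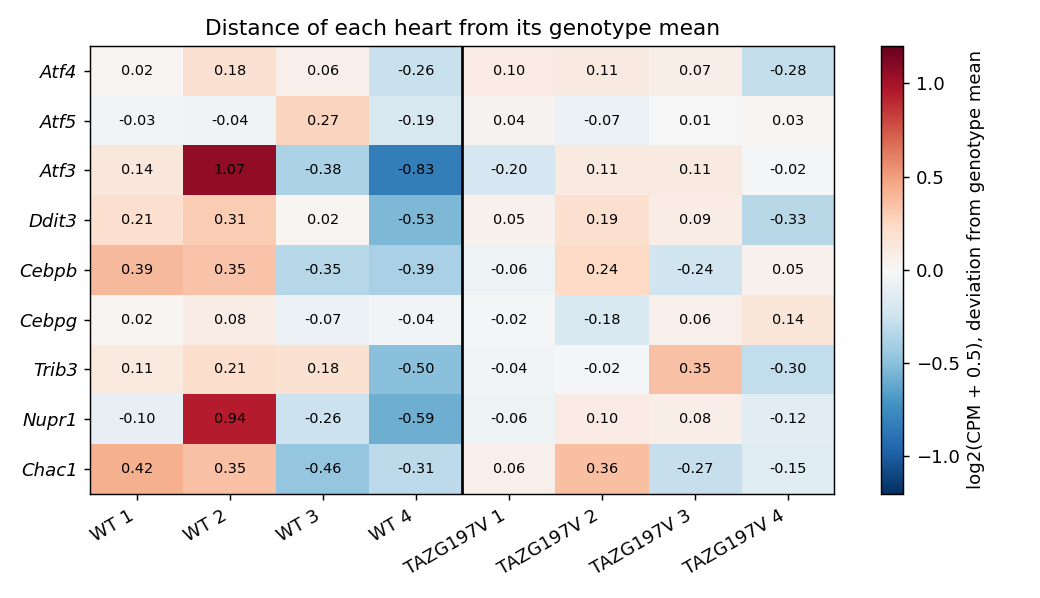
Deviation of each heart from the mean of its genotype for every member, on the scale of log2(CPM + 0.5), with red for above and blue for below the mean and a black line between the genotypes. The strongest colours are Atf3 (1.07) and Nupr1 (0.94) in WT 2 and Atf3 (-0.83) in WT 4, and the mutant hearts stay within 0.36 of their mean.

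None of the near relatives of the feedback genes was called higher. Of the 5 listed, 4 were tested, and 2 of the 4 fell (50%, beside 15.1% of all genes). So few genes cannot tell the absence of a rise from the 18.5% of all genes that were called higher. Chac2, the constitutive counterpart of Chac1 in glutathione breakdown, fell from 14.4 ± 2.38 to 8.08 ± 0.72 CPM, which is a log2 fold change of -0.87 ± 0.13 (SE, edgeR adjusted p = 0.00114). Trib2, a pseudokinase related to Trib3, fell from 47.1 ± 4.84 to 34.7 ± 1.43 CPM, with a log2 fold change of -0.47 ± 0.06 (SE, edgeR adjusted p = 8.75e-04). In both genes the genotypes did not overlap. Trib1 had a log2 fold change of -0.37 (edgeR adjusted p = 0.0809) and Stk40, a more distant relative, of -0.00. Nupr1l was too low to be tested.

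Of 47 genes listed as bZIP factors outside the set, 41 were tested. Of these, 9 rose (21.95%, beside 18.5% of all genes), 4 fell (9.76%, beside 15.1% of all genes) and 28 were not called, with a median log2 fold change of 0.13. These shares are near those of all genes. The 28 include Cebpz, which was listed by its name but is not a bZIP protein. Among those called the largest rise was that of Atf6, the membrane-bound sensor of the endoplasmic reticulum, which went from 170 ± 16.6 to 354 ± 36.2 CPM at a log2 fold change of 1.04 ± 0.08 (SE, edgeR adjusted p = 4.32e-05). Its values were 165, 155, 193 and 167 CPM in WT and 394, 338, 372 and 313 CPM in TAZG197V, without overlap. The rise of Atf6 was thus smaller than that of each member in the fit.

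Jdp2, a repressor of the AP-1 family, rose by a log2 fold change of 0.71 and Mafg, a small Maf protein that pairs with NRF2, by 0.61. Nfe2l2, which encodes NRF2, the regulator of antioxidant genes, rose by 0.48 and its relative Nfe2l1 by 0.37. Mafk, another small Maf, Creb3, Atf1 and Jund completed the list with 0.41, 0.35, 0.35 and 0.33. Of the factors that fell, Hlf, a PAR bZIP factor of circadian output, had the largest change, from 26.96 ± 10.9 to 10.1 ± 1.76 CPM (log2 fold change -1.30). Creb5, Atf7 and Creb1 fell by 0.41, 0.25 and 0.24 on the log2 scale. Hlf ranged from -1.57 to -0.52 over the alternative fits and was not called without both number 4 libraries (edgeR adjusted p = 0.0698). Of the 19 alternative fits, Creb5 was called in 6, Creb1 in 12 and Atf7 in 15, and of the factors that rose, Jund was called in 11 and Mafk in 14, so these calls depend on the settings. The other C/EBP genes Cebpa and Cebpd were not called, with log2 fold changes of -0.07 ± 0.19 and 0.16 ± 0.20 (SE).

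**Figure D5:**
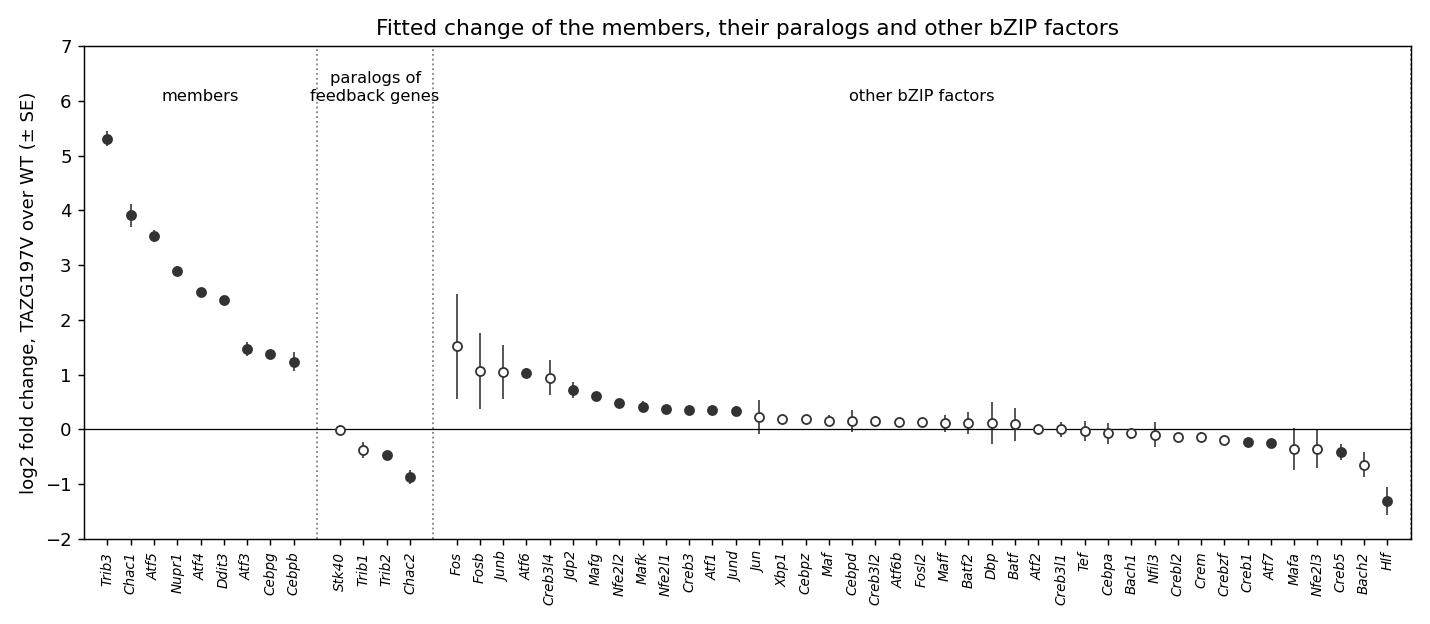
Fitted log2 fold change of TAZG197V over WT with its SE for the 9 members, the 4 tested paralogs of the feedback genes and the 41 tested genes listed as bZIP factors outside the set, filled where called and open where not. The members lie between 1.24 and 5.31, and the called bZIP factors between -1.30 and 1.04.

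The known targets of ATF4, listed apart from the members, largely moved with them. Of 33 genes, all tested, 28 rose (84.8%, beside 18.5% of all genes) and 2 fell, with a median log2 fold change of 2.62. The largest rises were those of Adm2, a peptide hormone gene, Fgf21, a stress hormone gene, and Slc7a3, a cationic amino acid transporter, with log2 fold changes of 7.98, 7.38 and 6.76. Each of these was near 0 in WT hearts, at 0.05 to 0.22 CPM on average, so the size depends on few counts. Slc1a5, a glutamine transporter, and Vldlr, a lipoprotein receptor, fell by 0.66 and 0.50, and Slc7a1, Ddit4 and Cbs were not called.

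Of the 9 genes for eIF2 kinases, phosphatase subunits and their mitochondrial relay, 4 rose (44.4%) and 2 fell (22.2%), where 18.5% and 15.1% of all genes did. Ppp1r15a, the stress-induced phosphatase subunit that reverses eIF2α phosphorylation, rose the most, from 21.8 ± 2.63 to 54.2 ± 6.81 CPM (log2 fold change 1.30 ± 0.12 SE, edgeR adjusted p = 1.31e-04). Eif2s1, the gene of eIF2α, had a log2 fold change of 0.63. Dele1, which relays mitochondrial stress to the kinase HRI, fell from 172 ± 13.8 to 110 ± 3.37 CPM (log2 fold change -0.65 ± 0.06 SE, edgeR adjusted p = 1.51e-04), without overlap. Of the kinase genes, Eif2ak1, which encodes HRI, had a log2 fold change of 0.20 that was called here but in only 11 of the 19 alternative fits, with an edgeR adjusted p of up to 0.239, and Eif2ak2, Eif2ak3 and Eif2ak4 had values of 0.14, 0.10 and -0.10 and were not called.

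Of 8 genes listed as regulated by CHOP, 6 rose (75%, beside 18.5% of all genes), with Gadd45a, Ppp1r15a and Bbc3 at log2 fold changes of 1.43, 1.30 and 1.149, and Bcl2l11, which encodes the cell death protein BIM, fell by 0.71. The 6 also include Bcl2, a survival gene that CHOP is known to lower, with a log2 fold change of 0.52 that was called in 13 of the 19 alternative fits. Their median was 0.83. Ppp1r15a and Dnajb9 are counted in a second list each.

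Chaperones of the endoplasmic reticulum, the usual readout of the ATF6 and XBP1 arms of the unfolded protein response, moved in both directions or were not called. Of 16 tested, 2 rose (12.5%, beside 18.5% of all genes), 4 fell (25%, beside 15.1%) and 10 were not called, with a median log2 fold change of -0.08. Dnajb9, a co-chaperone, had the largest rise (0.65), and Hspa5, the gene of the master chaperone BiP, went from 666 ± 112 to 578 ± 40.3 CPM and fell by 0.25 on the log2 scale, close to the threshold (edgeR adjusted p = 0.0490). Pdia4, Calr and Dnajc3 fell by 0.36, 0.34 and 0.29. Hspa5 was called in 7 and Pdia4 in 9 of the 19 alternative fits, and Calr and Dnajc3 in 18. Atf6 transcripts were thus higher in the same hearts in which those of Hspa5 were not.

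Genes with a pattern most like the members were sought by the Pearson correlation of log2 CPM with the mean z-score of the members over the 8 libraries, among 12348 genes with a mean count of at least 50. The closest were Snx6, 2410006H16Rik, Ccdc136, Rps4x and Kctd3, with r from 0.995 to 0.998. Their log2 fold changes were 0.54, 1.58, 2.15, 0.74 and 0.51. As many as 579 genes had r above 0.95, because the profile is dominated by the step between genotypes that the 8 libraries share, so this likeness does not single out a gene.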

How the data were processed

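RNA sequencing of heart pieces from 4 WT and 4 TAZG197V mice was analysed. The authors obtained 50-base single-end reads, which by their methods and processing notes were demultiplexed with bcl2fastq 2.20.0, checked with FastQC 0.11.9, aligned to mm10 with STAR 2.7.3a with up to 2 mismatches and counted over exons with featureCounts of Subread 2.0.0. The deposited values are raw counts per Ensembl gene. Strand setting, annotation release and treatment of reads with several alignments are not given in the sources used here. Nothing says how the mice of a genotype are related. The p-values of the fit therefore measure only the spread between these samples that is left after the 2 surrogate variables described below. The second was -0.845 in WT 2 and -0.163 to 0.370 in the other hearts. Without surrogate variables the SE went from 0.126 to 0.379 for Atf3 and from 0.092 to 0.320 for Nupr1. Among the members it became smaller for Atf5 alone, from 0.109 to 0.104.

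Symbols and exons came from GENCODE M21 (GRCm38), and 55230 gene identifiers had a symbol while 241 did not. Spike-in rows held 0 counts. Counts were fitted in R 4.3.3 with edgeR 4.0.16 (filterByExpr, TMM, quasi-likelihood F-test, two-sided) with 2 surrogate variables from svaseq (sva 3.50.0) and Benjamini-Hochberg adjustment over all genes. Standard errors were obtained from each log2 fold change and its F statistic. Calls needed an adjusted p under 0.05, a rise of more than 15% or the equivalent fall, and a mean scaled count of 50. Ratios used an exact permutation test in scipy. The procedure was tested on simulated counts. Total counts were 23055689 to 36301031 per library, and the lowest count behind a member value was 46. Counting error was not separated from the spread between mice. For genes with a small spread, such as Cebpg in WT (coefficient of variation 4.76%, 676 to 1196 counts), it need not be small beside it. Within a genotype, no library was a repeat of another by a chi-square comparison of counts.

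The members, the 7 other gene lists, the 9 lists of cell type markers and the tests were chosen with earlier results of these data known. Those lists were other bZIP factors, paralogs, ATF4 targets, eIF2 kinases, CHOP targets, chaperones and immediate early genes. One bZIP factor is not reported here. Besides the members, the text names up to 3 called genes with the largest change in each list, all called bZIP factors, the 5 genes most like the members, Taz, and genes whose exons overlap a member. Other named genes of the lists (among them Trib1, Stk40, Cebpa, Cebpd, the eIF2 kinase genes, Hspa5, Dnajc3, Slc1a5, Vldlr, Bcl2l11, Bcl2 and the genes of a list that were not called) were chosen after their values were seen. Fibroblast markers had 4 of 7 genes called lower (57.1%) and endothelial markers 2 of 7 (28.6%), beside 15.1% of all genes. Red cell, adipocyte and atrial markers had 6 of 6, 2 of 2 and 2 of 4 tested genes called lower. None of these lists had a gene called higher. Brain markers had 1 higher and 1 lower of 7 tested, and neutrophil markers 0 called of 3 tested. Alternatives were DESeq2 1.42.0, other covariates, other scaling and filters, and omission of libraries.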

Additional observations from a re-analysis of the deposited data

Results flagged for a closer look

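In 52 sets of 4 hearts (9 members, 8 ratios and 9 marker lists in each genotype), 1 heart was separated from the other 3 of its genotype by a gap that took more of the range than Dixon's limit for 4 values allows, in 7 sets, whereas chance gives about 1 in 20, or 2.6. Of the members, Trib3 was low in WT 4, where log2(CPM + 0.5) was 1.35 against 1.97 to 2.06 in the other WT hearts (gap 0.867 of the range). Atf4 was low in TAZG197V 4, with 8.15 against 8.504 to 8.54 (0.906). Both values stayed on their own side of the gap between genotypes.

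The other 5 sets were marker lists, given as log2 of the summed CPM + 0.5. Brain markers were high in WT 4, with 7.87 against 6.55 to 6.58 (0.978), and in TAZG197V 4, with 8.78 against 5.66 to 6.08 (0.864). Thus the hearts with the low Trib3 and the low Atf4 were those with the most brain marker RNA of their genotype, and its part in those values was not tested. Fibroblast markers were high in WT 2, with 10.6 against 9.84 to 9.93 (0.886), endothelial markers in WT 3, with 10.1 against 9.65 to 9.70 (0.876), and adipocyte markers in TAZG197V 4, with 2.84 against -0.15 to 0.23 (0.871).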

How the results depend on the processing

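All 9 members were called higher in each of the 19 alternative fits, with the single exception of Atf3 in the fit without surrogate variables, where its log2 fold change was 1.06 (edgeR adjusted p = 0.0631). No member changed direction in these fits. Over all alternatives the log2 fold change ran from 0.98 to 1.75 for Atf3, 2.41 to 2.53 for Atf4, 3.26 to 3.64 for Atf5, 2.15 to 2.46 for Ddit3, 1.04 to 1.54 for Cebpb, 1.31 to 1.44 for Cebpg, 5.08 to 5.38 for Trib3, 2.49 to 3.09 for Nupr1 and 3.72 to 4.44 for Chac1. The 8 ratios to Atf4 moved by less than 1 SD (pooled over the 2 genotypes) under a pseudocount of 0.1 CPM and without any 1 library or both number 4 libraries. They kept their sign in these settings except for Nupr1, whose difference of 0.12, which did not pass the test, became -0.04 without both number 4 libraries. For these omissions the ratios are values only, since without a library the permutation test cannot reach the threshold.

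The counts over all genes and over the lists depended more on the settings. At a fold of at least 1.5, 1843 genes were called, 998 higher and 845 lower, with 3 other bZIP factors higher and 1 lower, 1 paralog lower, 1 ATF4 target lower, 2 genes of the eIF2 list higher and 1 lower, and 1 chaperone higher and 0 lower. Without both number 4 libraries, 2649 genes were called, 1433 higher and 1216 lower, with 5 other bZIP factors higher and 1 lower, 2 genes of the eIF2 list higher, 1 chaperone higher, and 0 CHOP targets and 0 immediate early genes lower. Fewer genes can pass the higher fold by its construction. Leaving out libraries did not always lower the count, which was 5243 without WT 2 and 5241 without TAZG197V 4, beside 5060 in the main fit. Without surrogate variables 2 chaperones were lower and 1 immediate early gene higher. With 1 surrogate variable 2 chaperones were lower and 1 immediate early gene higher, and with lane as a term 1 immediate early gene was higher. Without the filter on low counts 2 chaperones were lower and 8 immediate early genes higher. The cause of these differences was not tested. The 9-letter motif was in 1 member promoter.

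Leaving out 1 library at a time gave 1 to 5 other bZIP factors lower (1 without TAZG197V 2), 1 to 2 genes of the eIF2 list lower (1 without WT 3, TAZG197V 1 or TAZG197V 2), 1 to 3 chaperones higher, 2 to 5 chaperones lower and 1 to 10 immediate early genes higher (10 without TAZG197V 3, 5 without TAZG197V 4). In these fits 9 of 9 members were called each time.

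The replicate numbers are shared between genotypes, but they were not treated as pairs. Deviations from the genotype mean correlated at 0.28, 0.04, 0.28 and 0.42 between hearts of the same number, and not every heart correlated best with its own number. With the replicate number as a block, 4272 genes were called in place of 5060, with 2 other bZIP factors lower, 2 chaperones lower and 1 immediate early gene higher, and the block left all 9 members called higher.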
